A study of Mus musculus with 2 samples.

Results

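S100a8, S100a9, S100a4, S100a6, S100a10, S100a11, Lyz1 and Lyz2 are 6 S100 genes and 2 lysozyme genes, several of which are widely read as myeloid markers. They were taken by gene name from the deposited tables, where each name had 1 entry, so that 8 of 34745 genes are described here. Levels were measured by RNA-seq in LSKs of the bone marrow (BM), sorted as lineage-negative, Sca1-positive and c-Kit-positive, a fraction that holds the hematopoietic stem and early progenitor cells. The mice were Scl/tTA-BA double transgenic animals on the B6 background, labelled C57BL/6. In them an Scl-driven tetracycline transactivator (tTA) switches on the fusion oncogene BCR/ABL (BA) from a tetracycline-responsive element once doxycycline is withdrawn from the drinking water. Both libraries carried both transgenes. The week-0 library came from mice still on doxycycline and the week-3 library from mice 3 weeks after withdrawal. LSKs of 3 mice were mixed for each library and there was 1 library per time point, so the spread between mice is unknown and no test of the conditions was possible. No library of mice without the transgenes was analysed here, and the ages of the mice are not given in the sources used here. The comparison asks which of these genes were at other levels in LSKs after BA was induced. Doxycycline withdrawal and BA induction came together, so their effects cannot be told apart. In the study's Scl/tTA-GFP reporter mice not all LSKs were GFP-positive at week-3, so the week-3 library may also hold cells without BA.

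S100 proteins are small calcium-binding proteins with EF-hand motifs, most of which work as pairs and bind other proteins when calcium rises. S100A8 and S100A9 form calprotectin, which fills the cytoplasm of neutrophils and is made by monocytes, binds metal ions needed by microbes, and acts as an alarm signal when released. S100A10 and S100A11 bind annexins at membranes, and S100A4 and S100A6 are made by many cell types, motile cells among them. Lysozymes cleave the peptidoglycan of bacterial walls. In the mouse Lyz2 is the lysozyme of neutrophils, monocytes and macrophages, and Lyz1 is the lysozyme of Paneth cells in the gut.

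The calprotectin genes S100a8 and S100a9 had the largest upward difference, at 3.59-fold and 4.80-fold higher FPKM in the week-3 library. S100a10 had the largest downward difference, at 3.37-fold lower. S100a6 was just under 2-fold higher, S100a11 was 1.69-fold lower, and Lyz2 differed by 1.15-fold. S100a4 and Lyz1 had at most 2 reads in either library and were given no ratio. FPKM (fragments per kilobase of exon, scaled by the reads of the library) is a level per length, and log2 ratios are of the FPKM at week-3 over that at week-0 with no pseudocount. Ranges in parentheses after a value are 95% exact Clopper-Pearson intervals from the reads. They cover counting error alone and leave out the spread between mice. They may be too narrow even for counting error, because cDNA was amplified before sequencing and reads are not separate molecules.

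Reads on genes numbered 6356164 (week-0) and 3886695 (week-3). A count of 0 allows up to 3 reads at 95% confidence, which equal 0.472 and 0.772 RPM (reads per 1000000 reads on genes). The sorting markers Kit (16.9 and 11.5 FPKM) and Ly6a, the gene of Sca1 (19.8 and 14.8 FPKM), were present in both libraries. Of 9 LSK markers 1 was 2-fold higher and 3 were 2-fold lower at week-3, beside 12.0% and 16.3% of 13384 genes compared. Markers of other cell types were also present, at levels that differed between the time points. B and erythroid cells are targets of a lineage depletion, whereas mast cells carry c-Kit. The summed FPKM of 9 B and plasma cell genes was 8624 at week-0 and 450.3 at week-3, that of 7 erythroid genes was 1326 and 93.5, and that of 8 mast cell and basophil genes was 288 and 3259. Their part in the values below was not tested. In sorted cells measured in bulk, fewer cells of a type and less RNA per cell cannot be told apart.

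S100a8 (ENSMUSG00000056054, chr3:90668978-90670035, plus strand) and S100a9 (ENSMUSG00000056071, chr3:90692632-90695721, minus strand) lie 22.6 kb apart on GRCm38 and are transcribed from opposite strands. The 250 bases before the RefSeq start of each (GRCm38.p6) are shown because these genes had the largest upward differences among the 8. Capitals mark the motifs searched, which were TATAAA on the gene's strand, TTGCNNAA as a simple C/EBP-type motif and GAGGAA as the core of a PU.1-type motif, the last pair on both strands. The S100a8 window is chr3:90668821-90669070, plus strand, and its last 93 bases lie inside the gene as the deposited table bounds it. The S100a9 window is chr3:90695722-90695971, minus strand.
S100a8: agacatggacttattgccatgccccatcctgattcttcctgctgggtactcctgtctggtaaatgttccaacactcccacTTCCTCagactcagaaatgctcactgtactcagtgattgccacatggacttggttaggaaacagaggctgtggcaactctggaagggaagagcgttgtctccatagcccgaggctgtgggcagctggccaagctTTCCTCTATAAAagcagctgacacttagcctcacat
S100a9: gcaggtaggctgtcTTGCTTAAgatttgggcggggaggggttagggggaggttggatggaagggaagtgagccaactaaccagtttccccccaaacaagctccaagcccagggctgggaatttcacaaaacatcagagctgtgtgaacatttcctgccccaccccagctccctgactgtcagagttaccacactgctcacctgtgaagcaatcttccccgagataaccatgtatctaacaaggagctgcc
In S100a8, TATAAA lay 30 to 25 bases before the start and followed directly on a TTCCTC, the reverse complement of GAGGAA, at 36 to 31 bases, without overlap. A further TTCCTC lay 170 to 165 bases before the start. S100a9 had neither TATAAA nor GAGGAA in its window and had TTGCTTAA 236 to 229 bases before the start. Of the 8 genes, 7 had a RefSeq window and S100a10 had none. Among those 7, TATAAA was found in S100a8 and S100a4, the C/EBP-type motif in S100a9 and Lyz1, and the PU.1-type core in S100a8 and S100a11. Over 32851 windows of the same length, TATAAA was in 7.59%, the C/EBP-type motif in 9.56% and the PU.1-type core in 23.3%. A match of letters is not a binding site.

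S100a8, the smaller calprotectin subunit, had 519 reads (week-0) and 1139 reads (week-3). Its level was 83.0 FPKM (76.0 to 90.4) at week-0 and 298 FPKM (281 to 316) at week-3, a log2 ratio of 1.84 (1.69 to 1.996). The ranges of the libraries lay far apart, and 3.55% of the genes compared had a larger ratio. S100a9, the larger calprotectin subunit, had 325 and 954 reads. Its level was 70.2 FPKM (62.8 to 78.3) at week-0 and 337 FPKM (316 to 359) at week-3, a log2 ratio of 2.26 (2.08 to 2.45). Only 2.14% of the genes compared had a larger ratio than S100a9. By FPKM S100a8 stood at rank 618 of 34745 genes in the week-0 library and at rank 166 in the week-3 library, and S100a9 at rank 732 and rank 142.

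The levels of the pair were of similar size in each library. The FPKM of S100a9 was 0.846 times that of S100a8 at week-0 and 1.13 times at week-3, and their log2 ratios differed by 0.42 (0.18 to 0.66). The reads of both genes together were 0.0133% (0.0124% to 0.0142%) of all reads on genes at week-0 and 0.0539% (0.0516% to 0.0562%) at week-3.

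**Figure D1:**
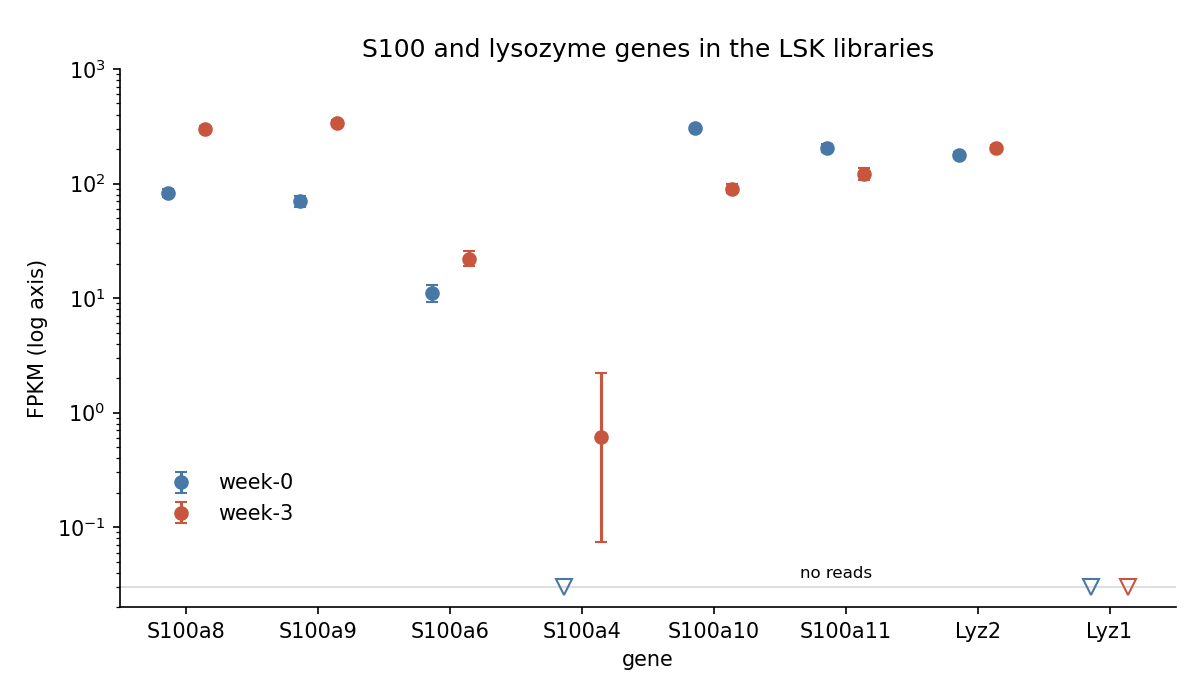
FPKM (log axis) of the 8 genes in the week-0 library (blue) and the week-3 library (red), with bars for the 95% counting interval and open triangles on the grey line for genes without reads. S100a8 and S100a9 stand higher at week-3 (298 and 337 FPKM), S100a10 and S100a11 stand lower (90.5 and 121 FPKM), and the Lyz2 points lie close together (178 and 205 FPKM).

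S100a10 (ENSMUSG00000041959, chr3:93555080-93564643, plus strand), also known as p11, is the partner of annexin A2 on membranes and on the cell surface. It had 3143 reads in the week-0 library, the most of the 8 genes, and 570 in the week-3 library. Its level was 305 FPKM (294 to 316) at week-0 and 90.5 FPKM (83.2 to 98.2) at week-3, a log2 ratio of -1.75 (-1.88 to -1.62). Its rank went from 160 to 613, and 7.70% of the genes compared had a lower ratio. S100a11 (ENSMUSG00000027907, chr3:93520488-93526287, plus strand), a partner of annexin A1, lies 28.8 kb from S100a10. It had 667 and 241 reads, a level of 205 FPKM (190 to 222) at week-0 and of 121 FPKM (107 to 138) at week-3, and a log2 ratio of -0.76 (-0.98 to -0.54). Both were lower in the week-3 library, S100a10 by more. The ratio of S100a10 to S100a11 was 1.49 at week-0 and 0.746 at week-3, a difference of the log2 ratios of -0.99 (-1.25 to -0.74).

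Annexins bind phospholipid membranes when calcium is present. Of 8 annexin genes 1 was 2-fold higher and 0 were 2-fold lower, with a median log2 ratio of 0.14. Anxa2, the partner of S100a10, was at 25.2 FPKM at week-0 and 37.8 at week-3, a log2 ratio of 0.59. Anxa1, the partner of S100a11, was at 30.1 and 55.2 FPKM, a log2 ratio of 0.88. The level of S100a10 was therefore 12.1 times that of Anxa2 at week-0 and 2.39 times at week-3, and the log2 ratios differed by -2.34 (-2.55 to -2.13). S100a11 was 6.82 times Anxa1 at week-0 and 2.20 times at week-3, a difference of -1.64 (-1.90 to -1.37). The annexin past 2-fold was Anxa3, an annexin of neutrophil granules, with 167 and 474 reads and a log2 ratio of 2.21. Anxa4, Anxa5, Anxa6, Anxa7 and Anxa11 lay between -0.53 and 0.26.

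S100a6 (ENSMUSG00000001025, chr3:90612882-90624181, plus strand), calcyclin, binds several annexins, Anxa11 among them. It had 136 reads (week-0) and 166 reads (week-3). Its level was 11.1 FPKM (9.30 to 13.1) at week-0 and 22.1 FPKM (18.9 to 25.8) at week-3, a log2 ratio of 0.997 (0.66 to 1.34). The ranges of the libraries did not overlap, but the ratio lay just under the limit of 2 and its interval spanned that limit. S100a6 was the lowest of the 6 genes with a ratio in both libraries. Its level was 0.987 times that of Anxa11 at week-0 and 1.93 times at week-3, a difference of the log2 ratios of 0.97 (0.55 to 1.39), and Anxa11 itself had a log2 ratio of 0.03.

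S100a4 (ENSMUSG00000001020, chr3:90603771-90606045, plus strand), a metastasis-associated S100 protein also made by many leukocytes, had 0 reads (week-0) and 2 reads (week-3). The 2 reads equal 0.617 FPKM (0.0747 to 2.23), and both values lie under the floor of 3 reads, so no fold is given. Its exons overlap those of another gene. Gm42674, a protein-coding gene of 4 exons on the same strand, shares 302 of the 584 exon bases of S100a4 (51.7%) and leaves 282 to S100a4 alone. Of the 399 stretches of 100 bases in the main S100a4 transcript, 61 (15.3%) touch no base of Gm42674. Gm42674 itself had 0 reads in both libraries. Counting rules often leave out reads that fall on exons of more than 1 gene, and the rule used is not given in the sources used here. At most 2 reads over both libraries were counted for 41.0% of 16237 protein-coding genes without shared exon bases and for 18.5% of 4925 with up to 50% shared. The share was 37.1% of 210 genes with 50% to 75% shared, the class of S100a4, and 82.8% of 261 genes with more. These classes were formed by shared bases, not by stretches of 100 bases, and were not matched by level. Whether shared exons lowered the count of S100a4 was not tested.

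**Figure D2:**
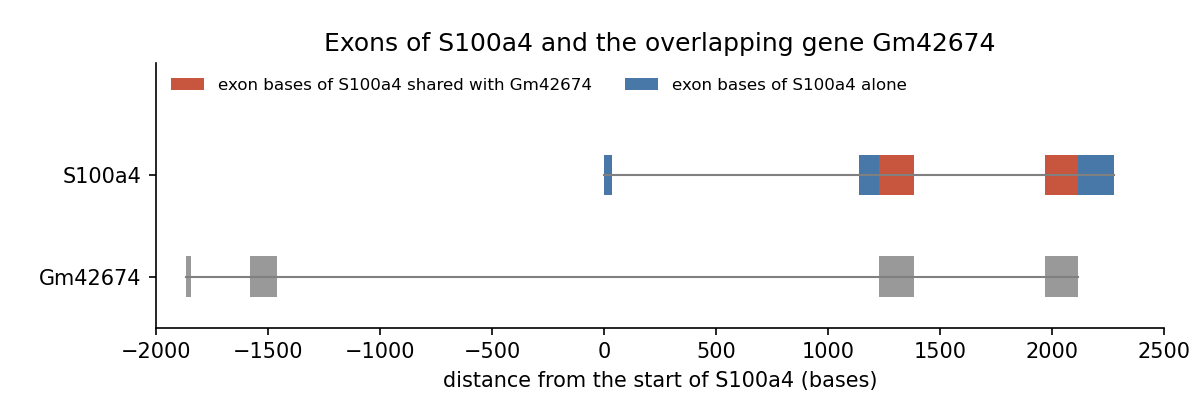
Exons (boxes) of S100a4 and of the overlapping gene Gm42674 against the distance in bases from the start of S100a4, with the parts of S100a4 exons shared with Gm42674 in red and the rest in blue. The shared parts make up 302 of 584 exon bases and take most of the middle exon and part of the last.

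Lyz2 (ENSMUSG00000069516, chr10:117277334-117282274, minus strand) and Lyz1 (ENSMUSG00000069515, chr10:117287796-117292868, minus strand) lie 5.52 kb apart and are near copies. Exon 2, a coding exon of 165 bases, is shown as a stretch in which few bases tell the copies apart. It lies at chr10:117291029-117291193 in Lyz1 and at chr10:117280641-117280805 in Lyz2 (GRCm38, GENCODE M21, minus strand). Capitals mark the 6 bases that differ, an identity of 96.4%.
Lyz1: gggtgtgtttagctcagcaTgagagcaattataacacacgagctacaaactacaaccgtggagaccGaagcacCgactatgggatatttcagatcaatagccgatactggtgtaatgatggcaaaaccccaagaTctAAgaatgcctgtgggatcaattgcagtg
Lyz2: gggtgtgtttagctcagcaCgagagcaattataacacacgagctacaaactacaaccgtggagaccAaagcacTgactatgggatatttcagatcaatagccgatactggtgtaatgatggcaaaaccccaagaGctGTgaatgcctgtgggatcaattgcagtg
Each stretch of 100 bases within exon 2 held 2 to 5 of the differences. Over whole transcripts, 308 of 1217 stretches of 100 bases in Lyz2 (25.3%) had a copy in Lyz1 with at most 2 mismatches, and 308 of 1164 in Lyz1 (26.5%) had one in Lyz2. The copies also share the sequence before their starts. The last 100 bases before the RefSeq starts, shown for that likeness, differed at the 8 bases in capitals (92.0% identity), and the 50 bases next to the start were identical. They lie at chr10:117292869-117292968 (Lyz1) and chr10:117282273-117282372 (Lyz2), minus strand, GRCm38.p6.
Lyz1 upstream: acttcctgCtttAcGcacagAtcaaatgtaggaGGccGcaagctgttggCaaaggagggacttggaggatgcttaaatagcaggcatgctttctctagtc
Lyz2 upstream: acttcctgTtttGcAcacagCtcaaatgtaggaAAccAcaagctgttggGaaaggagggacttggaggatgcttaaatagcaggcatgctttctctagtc

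Lyz2 had 1433 reads (week-0) and 1007 reads (week-3). Its level was 178 FPKM (169 to 188) at week-0 and 205 FPKM (192 to 218) at week-3, a log2 ratio of 0.20 (0.08 to 0.32). The ranges did not overlap, the difference was small, and 43.2% of the genes compared had a larger ratio. Lyz1 had 0 reads in both libraries, which allows up to 0.472 RPM (week-0) and 0.772 RPM (week-3). With no reads on Lyz1, the sum of the copies gave the same ratio. The log2 ratio of Lyz2 was below those of all 5 genes of the primary granule list. Mpo, myeloperoxidase, had the lowest of those 5. The level of Lyz2 was 0.577 times that of Mpo at week-0 and 0.207 times at week-3, a difference of the log2 ratios of -1.48 (-1.60 to -1.36). Against S100a8 it went from 2.15 to 0.687 times, a difference of -1.64 (-1.84 to -1.45). Of 6 other lysozyme-like genes none reached 10 reads, and Lyzl4 alone had any, with 2 at week-0.

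The order of the levels differed between the libraries. At week-0 it was S100a10, S100a11, Lyz2, S100a8, S100a9 and S100a6 from high to low, and the counting intervals overlapped only for S100a8 and S100a9. At week-3 it was S100a9, S100a8, Lyz2, S100a11, S100a10 and S100a6, followed by S100a4 with its 2 reads, and the intervals of S100a9 and S100a8 lay less than 1 FPKM apart. The summed level of the 8 genes was 853 FPKM at week-0 and 1074 at week-3. S100a8 made up 9.73% (week-0) and 27.7% (week-3) of this sum, and S100a9 8.24% and 31.4%. The share of S100a10 was 35.8% and 8.42%, that of S100a11 24.1% and 11.3%, and that of Lyz2 20.9% and 19.1%. By reads, the 8 genes held 0.0979% (0.0955% to 0.1004%) of the week-0 library and 0.105% (0.102% to 0.108%) of the week-3 library. The sum thus hid opposite differences within it.

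The levels, though not their order, depend on the exon length behind the FPKM. The length implied by the deposited reads and FPKM equalled, within 1 base, the summed length of all distinct annotated exons for 12266 of 14087 genes (87.1%), so that exon parts in several transcripts count more than once. For S100a8 the implied length was 984 bases, whereas its exons cover 694 bases, and for S100a9 the lengths were 728 and 522. With each base counted once, the order was the same in both libraries, and S100a11 and S100a10 came close to each other at week-3, at 121.3 and 121.0 FPKM. Ratios between the libraries do not depend on this length. S100a11 has a further limit, since 189 of 412 stretches of 100 bases in its transcript (45.9%) had a copy with at most 2 mismatches in the pseudogenes Gm12854 or Gm7665. The main transcripts of S100a8, S100a9, S100a6 and S100a10 had no such copy among the annotated transcripts of other genes. Copies outside annotated transcripts were not searched. Reads were sequenced in pairs of 100 bases each, and stretches were compared singly, so such shares are not shares of read pairs.

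Of the 8 genes, 6 had at least 10 reads over both libraries and were above 0 in both, as had 13384 genes in all. At least 2-fold higher at week-3 were 2 of the 6, S100a8 and S100a9, beside 1602 of all genes compared (12.0%). At most 0.5-fold was 1 of the 6, S100a10, beside 2181 of all (16.3%). With 6 genes, these counts do not set the group apart from all genes. The median log2 ratio was 0.60 over the 6 genes and 0.07 over all genes compared, and the 6 values ran from -1.75 to 2.26. With 2 libraries the pattern of a gene is 1 ratio, so no gene was ranked by likeness to these.

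**Figure D3:**
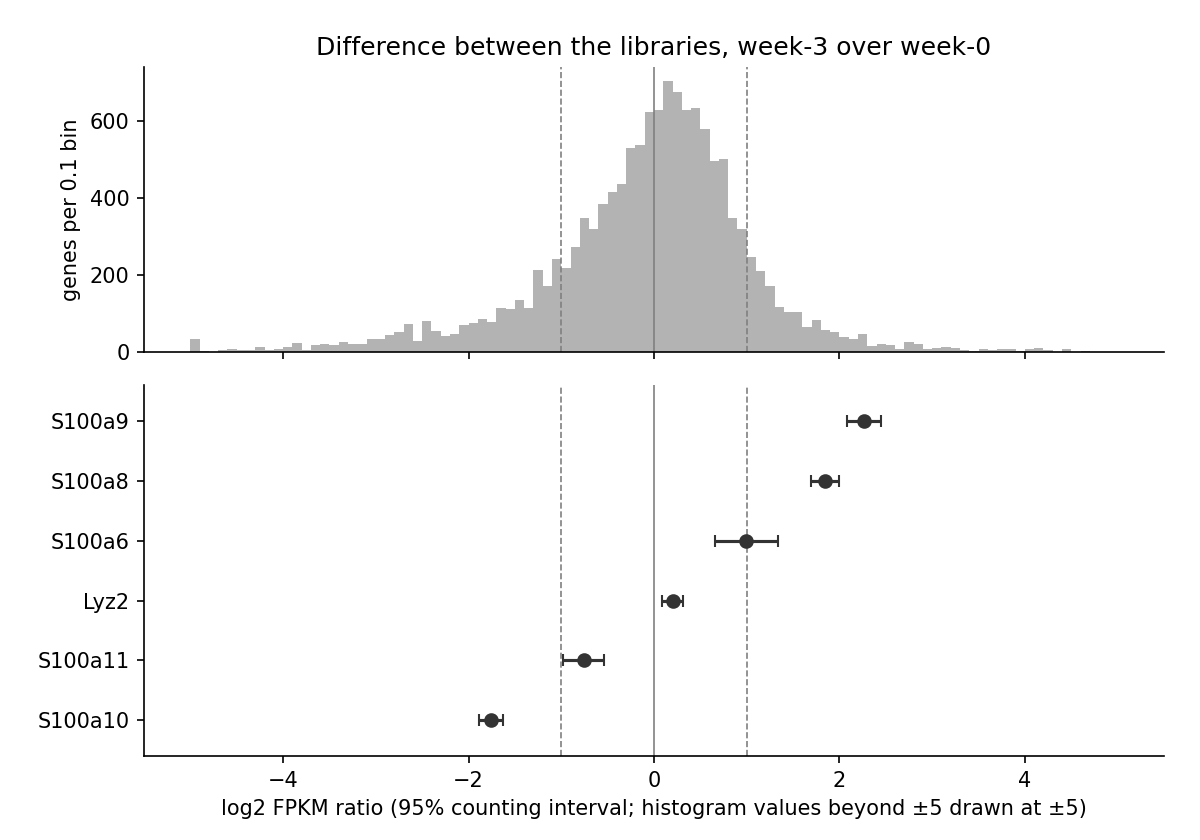
Top, number of genes per 0.1 bin of the log2 FPKM ratio (week-3 over week-0) for the 13384 genes compared, and bottom, the ratios of the 6 S100 and lysozyme genes with their 95% counting intervals, with dashed lines at 2-fold. S100a9 (2.26) and S100a8 (1.84) lie right of the upper line, S100a10 (-1.75) left of the lower, and the interval of S100a6 spans the upper line.

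Along chromosome 3, S100a8, S100a9, S100a6 and S100a4 stand in a cluster of 12 S100 genes that spans 185 kb from S100a1 to S100a9, and S100a11 and S100a10 stand 2.82 Mb further on. In the cluster 5 genes had at least 10 reads over both libraries and the other 7 had at most 3 in each. S100a1, at one end, was at 34.0 FPKM at week-0 and 42.7 at week-3, a log2 ratio of 0.33 (0.06 to 0.59). Its neighbour S100a13 was at 81.2 and 77.7 FPKM, a log2 ratio of -0.06 (-0.31 to 0.18). S100a6, S100a8 and S100a9 had larger ratios than either of these, and S100a7a, which lies between S100a6 and S100a8, had 0 reads. Within 60 kb outside the cluster, the 3 genes that could be compared, Ilf2, Snapin and Chtop, had log2 ratios from -0.02 to 0.12. All 3 lie on the side of S100a1. On the side of S100a9, Pglyrp4 had 0 reads in both libraries, so no gene there could be compared. Next to the lysozyme genes, Yeats4 had a log2 ratio of 0.33 and Cpsf6 of 0.63. Of the 10 other S100 family genes listed, on any chromosome, 2 could be compared and 0 were past 2-fold, and 8 had at most 3 reads in each library.

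**Figure D4:**
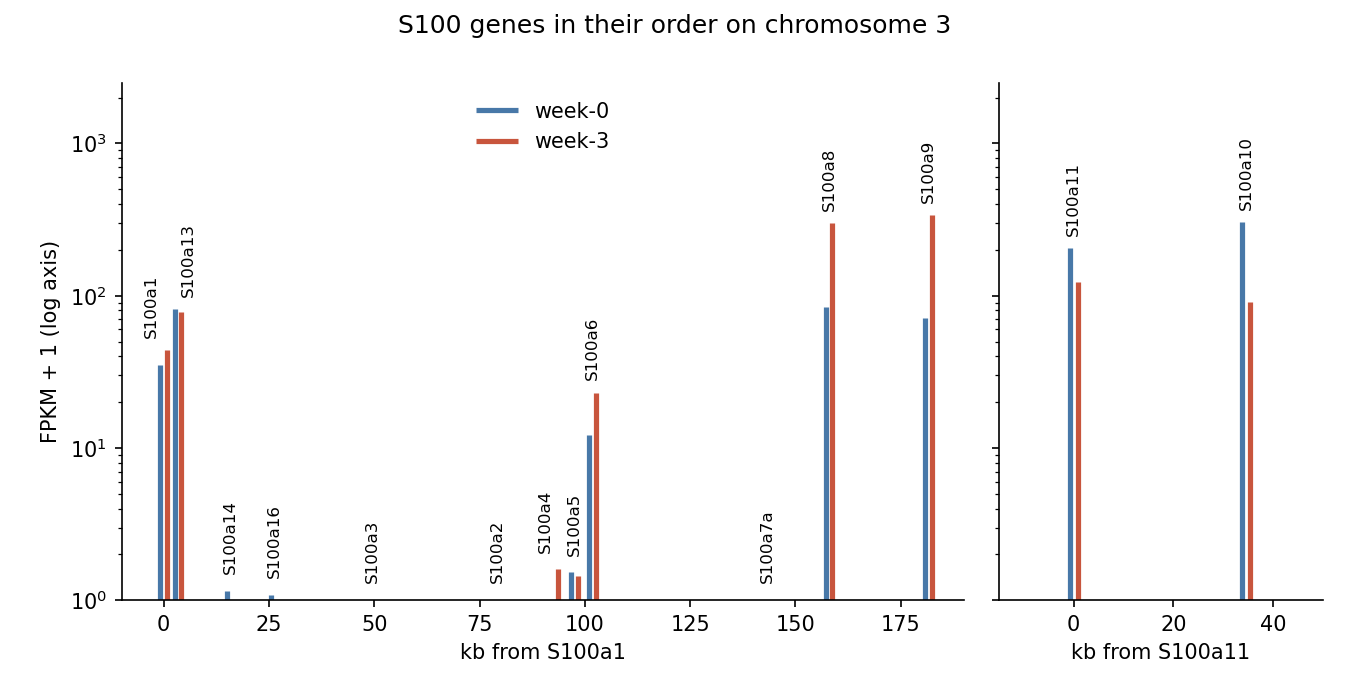
FPKM + 1 (log axis) of S100 genes at week-0 (blue) and week-3 (red) against their distance in kb from S100a1 (left) and from S100a11 (right). S100a8 and S100a9 are taller at week-3 (298 and 337 FPKM), S100a1 and S100a13 are of similar height in both libraries, and S100a10 is taller at week-0 (305 against 90.5 FPKM).

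Genes of receptors and adaptors for S100A8 and S100A9 showed no common direction. Of 6 receptor and adaptor genes 5 could be compared, of which 1 was 2-fold higher and 0 were 2-fold lower, with a median log2 ratio of 0.28. Tlr4, a calprotectin receptor, had 5 reads (week-0) and 1 reads (week-3). Its co-receptor genes Ly96 and Cd14 had log2 ratios of -0.29 and -0.79, and the adaptor gene Myd88 one of 0.68. Bsg, a surface receptor for S100A9, was at 118 and 144 FPKM, a log2 ratio of 0.28. Ager, the receptor RAGE, was past 2-fold at 1.48 but rested on 10 and 17 reads.

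Of 9 genes of myeloid transcription factors 3 were 2-fold higher and 2 were 2-fold lower, with a median log2 ratio of 0.39. Those higher were Gfi1 (2.20), which acts in granulocyte formation, Cebpe (1.36), needed for secondary granules, and Cebpa (1.25), needed to form granulocyte progenitors. Those lower were Klf4 (-2.50), a factor of monocyte formation, and Cebpb (-1.68), a factor of emergency granulopoiesis. Spi1, which encodes PU.1, was at 132 and 135 FPKM, and Cebpd, Irf8 and Runx1 were within 2-fold. Factors of the C/EBP family thus lay on both sides of 0.

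Granule and neutrophil genes were higher at week-3 in the same libraries. All 5 genes of the primary granule list were 2-fold higher, with a median log2 ratio of 2.53. Their summed level was 1836 FPKM at week-0 and 10332 at week-3. The 5 were Ms4a3 (3.55), Ctsg (2.88), Prtn3 (2.53), Elane (2.46) and Mpo (1.68). Ctsg, Prtn3 and Elane encode serine proteases, and Ms4a3 encodes a membrane protein, not a granule protein. Of 11 secondary granule and mature neutrophil genes 9 were 2-fold higher and 0 lower, with a median of 2.67 and a summed level of 107 and 514 FPKM. They were led by Chil3 (4.47), Lcn2 (3.83), Mmp8 (3.55) and Retnlg (2.73). The log2 ratios of S100a8 and S100a9 lay below the medians of both lists. The receptor genes Cxcr2 (49 and 53 reads, 0.82) and Csf3r (644 and 290 reads, -0.44) of the second list were not past 2-fold. Of 6 lineage panel antigen genes 5 could be compared, of which 2, Ly6c2 (2.20) and Ly6c1 (1.09), were 2-fold higher and 0 were lower, with a median of 0.71 and a summed level of 47.2 and 194 FPKM. Among them Ly6g, an antigen of neutrophils, rested on 5 reads in each library, a log2 ratio of 0.71 (-1.41 to 2.83) at these depths. Whether neutrophils in the sorted cells or expression in LSKs set the levels of S100a8 and S100a9 was not tested.

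Of 7 monocyte genes 4 were 2-fold higher, with a median log2 ratio of 1.69 and a summed level of 61.3 and 259 FPKM. These were Ccr2 (3.54), F13a1 (2.32), Ly6c2 (2.20) and Ms4a6c (1.69). Of 8 macrophage genes 4 could be compared, with 0 past 2-fold, a median of -0.40 and a summed level of 17.4 and 25.4 FPKM. Their ratios ran from -0.99 to 0.78. The highest was that of Cd68, which had most of the list's reads (175 and 184), and C1qc was at 6 and 0 reads. Among 7 mast cell and basophil genes compared, 6 were 2-fold higher and 1, Prss34, was lower. Tpsb2, of the same list, had 0 reads (week-0) and 5442 reads (week-3) and was given no ratio. Among 7 B and plasma cell genes 6 were 2-fold lower (median -4.32), and all 7 erythroid genes were (median -3.36). Of 5 megakaryocyte genes 1 was 2-fold lower and 0 were higher, and the 1 T cell gene that could be compared was lower. Of the LSK markers, Flt3 (-2.02), Procr (-1.35) and Mecom (-1.10) were lower, and Slamf1 (1.29) was higher on 10 and 15 reads. Both S100a10 and S100a11 were lower in the library with less of the B cell, plasma cell and erythroid genes. The part of those cells in the levels of S100a10 and S100a11 was not tested. Bcr (8.93 and 4.25 FPKM) and Abl1 (3.00 and 1.79 FPKM) were lower at week-3, but reads on the mouse genes do not check the transgene.

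**Figure D5:**
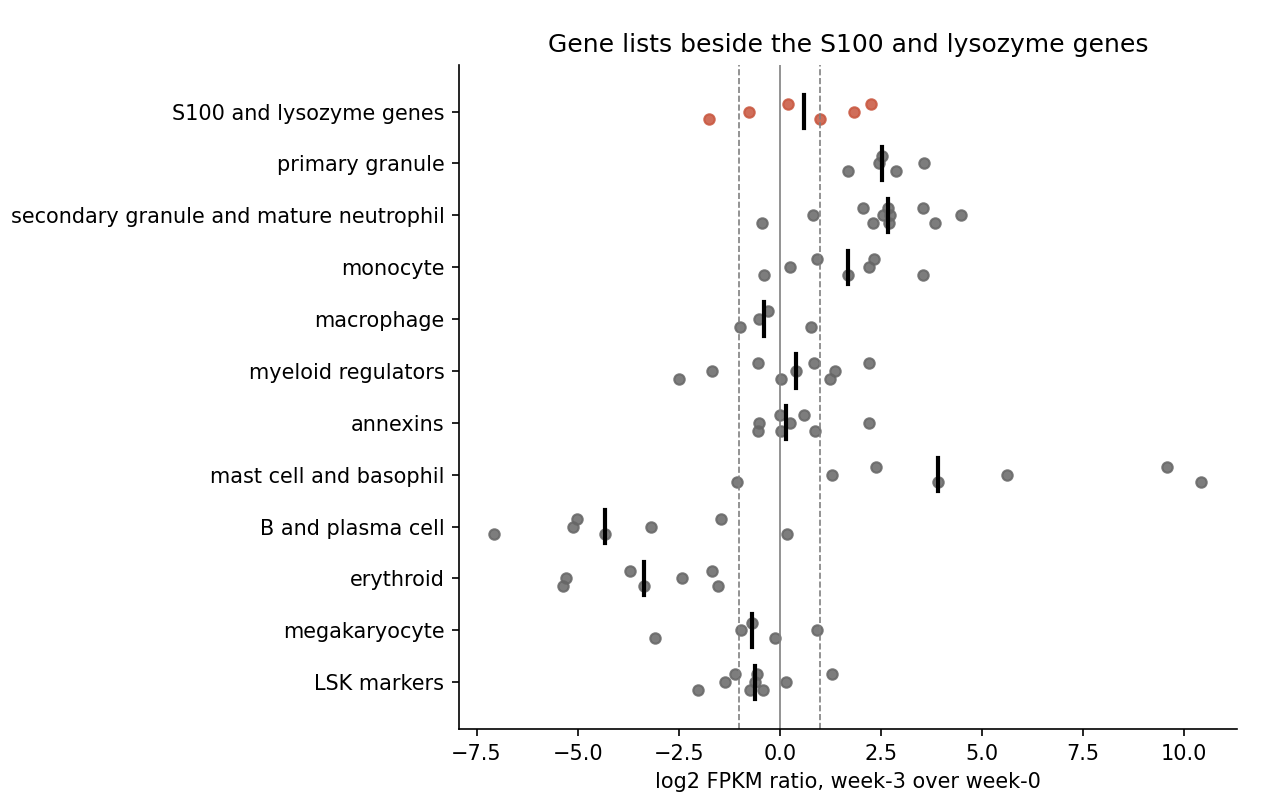
Log2 FPKM ratio (week-3 over week-0) by gene list, with black bars for list medians and dashed lines at 2-fold. Each point is a gene with at least 10 reads over both libraries and above 0 in both. The 6 S100 and lysozyme genes (red) spread from -1.75 to 2.26. Genes of the primary granule list (median 2.53) and secondary granule and mature neutrophil genes (median 2.67) lie mostly right of the upper line. Erythroid genes (median -3.36) lie left of the lower.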

How the data were processed

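RNA-seq of LSKs was analysed as 1 library at week-0 and 1 at week-3. Per the submitters' processing notes, reads were mapped to mm10 (GRCm38) with TopHat2 2.0.9. The authors deposited counts (whole reads per gene, not normalized) and FPKM (scaled by exon length and reads on genes). The counting tool, strand setting and annotation release are not given in the sources used here.

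Ratios were FPKM at week-3 over week-0 for 13384 genes with at least 10 reads over both libraries and above 0 in both, with 2-fold limits. Intervals at 95% are exact Clopper-Pearson, and those of differences between log2 ratios are exact conditional odds-ratio intervals. The edgeR test named in the methods was not run, since 1 library per time point gives no spread. The ratio, its interval and the 2-fold call were tested on simulated reads with counting error alone, without amplification or spread between mice. Alternatives were scaling by edgeR 4.0.16 (TMM) or DESeq2 1.42.0 size factors in R 4.3.3, pseudocounts, filters and limits. An alternative exon length was chosen after seeing the data. Tables were computed in Python 3.11.15 with pandas 2.3.3 and numpy 2.4.6, intervals with scipy 1.17.1. Exons and transcripts came from GENCODE M21 and upstream windows from RefSeq.

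The genes and lists were chosen with earlier results of these data known. Besides the 8 genes, up to 4 genes past 2-fold per list, any gene of the LSK, transgene, regulator, annexin and receptor lists, and cluster neighbours were named. Other genes (Mpo, Cxcr2, Csf3r, Ly6g, C1qc, Cd68, Lyzl4, Tpsb2, Gm42674, Gm12854 and Gm7665) were named after their values were seen.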

Additional observations from a re-analysis of the deposited data

How the results depend on the processing

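No paired analysis was possible because each time point had 1 library. The log2 ratios of the 6 genes were recomputed with TMM factors (a shift of -0.08) and median-of-ratios factors (-0.07). Pseudocounts of 0.1 and 1 FPKM and, for the lysozymes, summed reads were also used. Of these values, 25 of 25 stayed inside the counting interval with 0 reversed. Little movement was possible, because the shifts were narrower than the intervals, the pseudocounts were small beside the levels and Lyz1 had no reads. With a limit of 1.5-fold, 3 of the 6 genes were higher at week-3, S100a6 being added, and 2 were lower, S100a11 being added, beside 3331 genes higher (24.9%) and 3390 lower (25.3%) among all. Without S100a10, the genes held 0.0485% (week-0) and 0.0903% (week-3) of all reads. With each exon base counted once, the levels at week-0 and week-3 were 118 and 422 FPKM for S100a8, 98.0 and 470.2 for S100a9, 15.7 and 31.2 for S100a6, and 408 and 121.0 for S100a10. S100a4 and Lyz1 had too few reads to be compared, and the spread between mice is unknown for every value.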
